A study of Homo sapiens with 12 samples.

Results

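The MYC, MAX and MXD network was examined through 10 genes, MYC, MAX, MXD1, MXD3, MXD4, MXI1, MNT, MGA, MLX and MLXIP, out of 23195 genes listed. The genes were chosen by name, as listed rows of the basic helix-loop-helix zipper network. MXD4 was also chosen by its value, because it depended most on RFX7 under Nutlin-3a in these data. All 10 genes were listed in all 4 result tables, so none was lost to a filter on low counts.

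The cells were HCT116, a human colorectal carcinoma line with intact p53. In the first group they received a control siRNA (siControl) and the solvent DMSO, in the second siControl and Nutlin-3a at 10 µM for 24 h. The other groups received an siRNA against the transcription factor RFX7 (siRFX7) with DMSO or with Nutlin-3a in the same way. Nutlin-3a blocks the p53 inhibitor MDM2 and so activates p53. Each of the 4 groups had 3 libraries of polyA RNA, made from 500 ng of total RNA. All groups rest on a single cell line, and the labels name no second siRNA against RFX7 and no rescue. Whether replicates came from separate cultures is not stated, so the p-values measure only the spread between these libraries.

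MYC activates genes for growth and cell division when it pairs with MAX and binds E-boxes, short DNA elements with the core CACGTG. The MXD proteins (MXD1, MXD3, MXD4 and MXI1), MNT and MGA also pair with MAX at E-boxes, but they recruit repressors, the MXD proteins and MNT through the SIN3 corepressor and MGA within a Polycomb complex. MLX is a MAX-like partner for the glucose-sensing activator MLXIP (MondoA) and for some MXD proteins. MXD genes are typically raised when cells leave the cycle, apart from MXD3, which is known from dividing cells.

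The deposited values are group-level statistics, so no level per library can be given. Standard errors of the log2 changes had a median of 0.09 for genes with a mean of at least 100 in each of the 4 tables. RFX7 in siRFX7 cells was at 19.6% of its siControl level in DMSO and at 22.6% in Nutlin-3a, from the authors' deposited tables. The p53 targets MDM2 and CDKN1A rose under Nutlin-3a in siControl cells with log2 fold changes of 3.99 and 4.46 per the authors' deposited table. In siRFX7 cells their rises were smaller, at 3.30 for MDM2 and 3.53 for CDKN1A. Without Nutlin-3a, both genes were already higher after siRFX7, MDM2 by 0.49 and CDKN1A by 1.29. Under Nutlin-3a the siRFX7 effect was -0.21 for MDM2, whereas CDKN1A stayed higher by 0.35, per the authors' deposited tables. The 5 epithelial markers were listed with mean normalized counts from 2585 to 80338, while 3 of 5 markers of other cell types were listed, from 1.42 to 441. The highest of these, the collagen gene COL1A1, was higher with siRFX7 by log2 fold changes of 0.36 and 0.52 (adjusted p by DESeq2 0.00655 and 6.71e-05) per the authors' deposited tables, and its part in the siRFX7 results was not tested.

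MXD4 rose with Nutlin-3a in siControl cells and was lower with siRFX7. Its recovered group mean was 715 (DMSO) and 2766 (Nutlin-3a) normalized counts under siControl, and 360 (DMSO) and 344 (Nutlin-3a) under siRFX7. The siControl Nutlin-3a group alone was high, and both siRFX7 groups lay below siControl DMSO. In bulk RNA, fewer cells with a transcript and less of it per cell cannot be told apart. Under Nutlin-3a in siControl cells MXD4 rose 3.87-fold (95% interval 3.46 to 4.33) per the authors' deposited table. Both Nutlin-3a groups entered the contrast that chose MXD4, so its Nutlin-3a responses are descriptions. In siRFX7 cells the Nutlin-3a ratio of MXD4 was 0.957 per the authors' deposited table, with a 95% interval of 0.839 to 1.09. Without Nutlin-3a, siRFX7 left MXD4 at 50.3% of its siControl level (95% interval 44.4% to 57.0%, adjusted p by DESeq2 2.66e-25) per the authors' deposited table.

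The contrast that chose MXD4 is given as a description only. With Nutlin-3a, MXD4 in siRFX7 cells was at 12.4% of its siControl level (95% interval 11.0% to 14.0%) per the authors' deposited table. Its Wald statistic (fold change over error) ranked 1 of 19393 from the low end at -33.9. The next genes in that order of the authors' deposited table were PNRC1 at -29.5, RFX5 at -27.6 and PDCD4 at -27.0. By log2 fold change alone MXD4 ranked 9 among all listed genes and 1 among the 12463 whose mean reached 100 normalized counts. The MXD4 response to Nutlin-3a was lower in siRFX7 than in siControl cells by a log2 difference of -2.01 (standard error 0.13), which contains the same contrast.

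MXD4 lies at chr4:2247432-2262294 on the minus strand (GENCODE 29, GRCh38). The stretch just upstream of the annotated gene is printed because it holds both kinds of element searched. The first is the E-box CACGTG. The second is an X-box half-site, the element bound by RFX proteins, searched as GTTGCCA or GTTGCTA on both strands; these letters do not overlap the E-box. The 250 bases upstream of each RefSeq start (GRCh38.p14) were searched for 9 of the 10 genes, in 14 windows; no window was used for MYC. In MXD4 the E-box begins 238 bases and the half-site GTTGCTA 230 bases upstream of the RefSeq start, with 2 bases between them. An E-box was also found in MNT, beginning 193 bases upstream, and in MLX, 50 bases upstream, and MXD4 had the single half-site among the 14 windows. The sequences follow from RefSeq, 5′ to 3′ on the gene's strand, with the matches in capitals, and each stops before the gene's first base in either annotation.
MXD4 chr4:2262295-2262359 minus strand: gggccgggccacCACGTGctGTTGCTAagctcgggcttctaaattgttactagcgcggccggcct
MNT chr17:2401119-2401310 minus strand: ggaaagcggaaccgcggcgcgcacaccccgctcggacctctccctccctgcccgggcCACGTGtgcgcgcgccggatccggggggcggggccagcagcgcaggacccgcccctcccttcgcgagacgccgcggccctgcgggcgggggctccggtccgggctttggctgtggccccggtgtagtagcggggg
MLX chr17:42566850-42567067 plus strand: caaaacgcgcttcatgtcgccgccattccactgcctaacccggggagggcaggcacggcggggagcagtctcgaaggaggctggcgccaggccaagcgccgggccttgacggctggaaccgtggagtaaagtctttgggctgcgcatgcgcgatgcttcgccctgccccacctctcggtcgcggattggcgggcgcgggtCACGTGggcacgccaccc
Of 35116 windows of the same length, 6.34% held an E-box, 5.76% a half-site and 0.302% both. A match describes the letters and is no measurement of binding, and a window without a match says nothing about the factor.

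**Figure D1:**
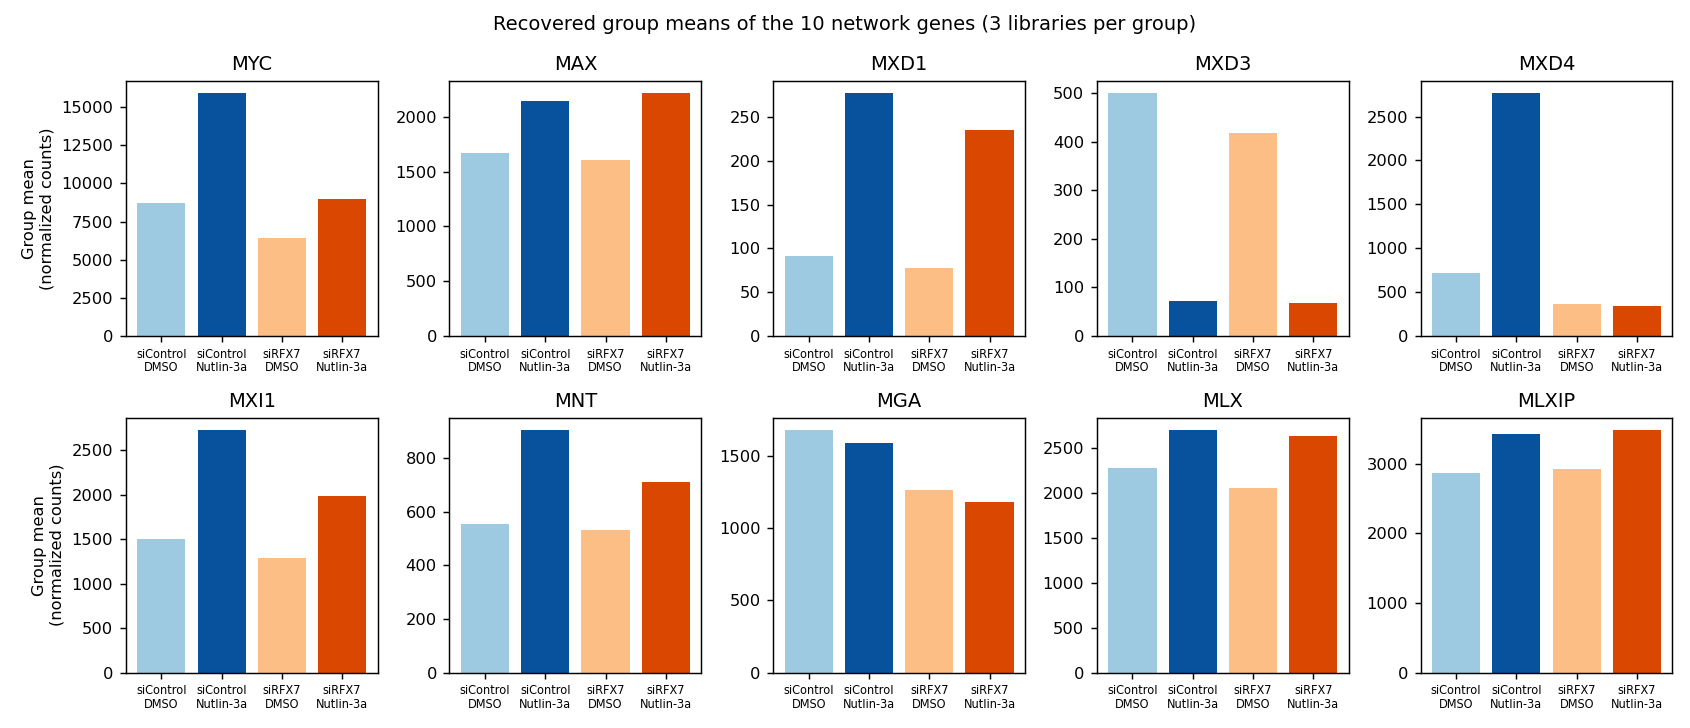
Bars give the recovered group mean in normalized counts for each of the 10 genes in the 4 groups (x axis), with a y axis of its own from 0 in each panel and no error bars because the files hold no value per library. MXD4 reaches 2766 in siControl Nutlin-3a and 344 in siRFX7 Nutlin-3a, MXD3 is low in both Nutlin-3a groups, and MYC is highest in siControl Nutlin-3a.

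The other MXD genes responded to Nutlin-3a under both siRNAs. MXD1, the founding member of the MXD repressors, had recovered means of 91.1 (DMSO) and 277 (Nutlin-3a) normalized counts under siControl, and 77.2 (DMSO) and 236 (Nutlin-3a) under siRFX7. Its groups were separated mainly by the treatment. MXD1 rose 3.05-fold in siControl (95% interval 2.47 to 3.76) and 3.06-fold in siRFX7 (2.46 to 3.79) per the authors' deposited tables (adjusted p by DESeq2 3.72e-24 and 5.57e-23). The difference of these MXD1 responses was 0.00 on the log2 scale with a 95% interval of -0.43 to 0.44 (z test adjusted p 0.997). siRFX7 was not shown to change MXD1, with log2 fold changes of -0.24 with DMSO and -0.23 with Nutlin-3a per the authors' deposited tables (adjusted p by DESeq2 0.334 and 0.214). An exon of MXD1 overlaps one of SNRNP27 on the same strand, and SNRNP27 was called in no comparison.

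MXD3 moved the other way from its relatives. Its recovered means were 500.4 (DMSO) and 72.3 (Nutlin-3a) normalized counts under siControl, and 418 (DMSO) and 67.0 (Nutlin-3a) under siRFX7. Both Nutlin-3a groups were low. MXD3 fell to 14.5% of its DMSO level in siControl (95% interval 11.1% to 18.8%) and to 16.0% in siRFX7 (12.3% to 20.9%) per the authors' deposited tables (adjusted p by DESeq2 9.54e-47 and 6.11e-41). The siRFX7 effect on MXD3 had adjusted p-values of 0.270 with DMSO and 0.761 with Nutlin-3a per the authors' deposited DESeq2 tables, and the response difference was 0.15 (95% interval -0.39 to 0.68). MXD3 exons overlap those of RAB24 on the same strand and of PRELID1 on the other, so its counts are uncertain where the authors' counting could share or drop reads. With Nutlin-3a in siControl, log2 fold changes per the authors' deposited table were -0.67 for PRELID1 and -1.27 for RAB24, against -2.79 for MXD3. Their part in the MXD3 value was not tested.

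MXI1, a further MAX-binding repressor of the MXD type, had recovered means of 1503 (DMSO) and 2731 (Nutlin-3a) normalized counts under siControl, and 1291 (DMSO) and 1983 (Nutlin-3a) under siRFX7. Nutlin-3a raised MXI1 1.82-fold in siControl (95% interval 1.66 to 1.99) and 1.54-fold in siRFX7 (1.40 to 1.69) per the authors' deposited tables (adjusted p by DESeq2 1.81e-35 and 3.73e-18). The difference of the MXI1 responses was -0.24 on the log2 scale (standard error 0.10) and did not pass the z test after adjustment (adjusted p 0.133). siRFX7 lowered MXI1 by a log2 fold change of -0.46 in Nutlin-3a (standard error 0.07, adjusted p by DESeq2 1.79e-10) and of -0.22 in DMSO (standard error 0.07, adjusted p 0.00831) per the authors' deposited tables. The DMSO call for MXI1 was lost with equal group totals (adjusted p 0.0665) and with a t distribution of 8 degrees of freedom in place of the normal one (adjusted p 0.0677).

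MYC itself rose with p53 activation and was lower with siRFX7. Its recovered means were 8692 (DMSO) and 15919 (Nutlin-3a) normalized counts under siControl, and 6420 (DMSO) and 8964 (Nutlin-3a) under siRFX7. The siControl Nutlin-3a group was high, and siRFX7 with Nutlin-3a came close to siControl with DMSO. MYC rose 1.83-fold with Nutlin-3a in siControl (95% interval 1.66 to 2.02) and 1.40-fold in siRFX7 (1.27 to 1.54) per the authors' deposited tables (adjusted p by DESeq2 6.74e-33 and 1.70e-10). siRFX7 lowered MYC to 73.9% of its siControl level in DMSO (95% interval 67.0% to 81.5%) and to 56.3% in Nutlin-3a (51.1% to 62.1%) per the authors' deposited tables (adjusted p by DESeq2 2.54e-08 and 1.15e-28). The MYC response to Nutlin-3a was smaller in siRFX7 cells by a log2 difference of -0.39 (standard error 0.10, z test adjusted p 0.00388). With a t distribution of 8 degrees of freedom the adjusted p of that MYC difference was 0.16. The Nutlin-3a effect in siControl and the siRFX7 effect in Nutlin-3a both use the siControl Nutlin-3a libraries, so for each gene they are not independent of each other.

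MAX, the common partner, changed little. Its recovered means were 1675 (DMSO) and 2147 (Nutlin-3a) normalized counts under siControl, and 1606 (DMSO) and 2217 (Nutlin-3a) under siRFX7. Both Nutlin-3a groups were high and the siRNAs lay close together. Nutlin-3a raised MAX 1.28-fold in siControl (95% interval 1.18 to 1.39) and 1.38-fold in siRFX7 (1.27 to 1.5) per the authors' deposited tables (adjusted p by DESeq2 2.50e-08 and 2.03e-13). siRFX7 was not shown to change MAX, with log2 95% intervals of -0.18 to 0.06 in DMSO and -0.07 to 0.16 in Nutlin-3a from the authors' deposited tables (adjusted p by DESeq2 0.521 and 0.631).

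**Figure D2:**
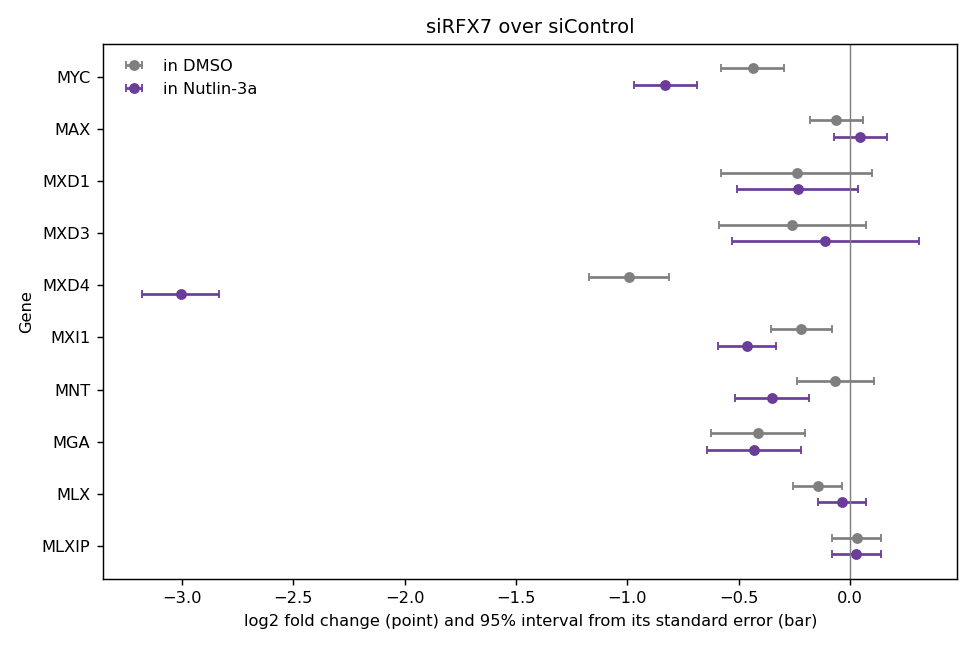
Points give the log2 fold change of siRFX7 over siControl (x axis) for each gene (y axis) in DMSO and in Nutlin-3a, with 95% intervals from the authors' standard errors as bars. MXD4 lies at -0.99 and -3.01, MYC at -0.44 and -0.83, and the intervals of MAX, MXD1, MXD3 and MLXIP reach across 0 in both treatments.

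MNT, a repressor that is widely present and competes with MYC for MAX, had recovered means of 556 (DMSO) and 905 (Nutlin-3a) normalized counts under siControl, and 531 (DMSO) and 710.3 (Nutlin-3a) under siRFX7. Nutlin-3a raised MNT 1.63-fold in siControl (95% interval 1.45 to 1.83) and 1.34-fold in siRFX7 (1.19 to 1.5) per the authors' deposited tables (adjusted p by DESeq2 1.55e-15 and 6.28e-06). siRFX7 lowered MNT by a log2 fold change of -0.35 in Nutlin-3a (standard error 0.08, adjusted p by DESeq2 0.000240) per the authors' deposited table, against -0.07 in DMSO (adjusted p 0.649). That pass in one treatment and not the other does not show a difference between treatments, since the difference for MNT was -0.28 with a z test adjusted p of 0.177.

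MGA, which carries a T-box domain beside its MAX-binding part, had recovered means of 1679 (DMSO) and 1591 (Nutlin-3a) normalized counts under siControl, and 1262 (DMSO) and 1181 (Nutlin-3a) under siRFX7. Its groups were separated mainly by the siRNA. siRFX7 lowered MGA to 75.1% of siControl in DMSO (95% interval 64.9% to 87.0%) and to 74.2% in Nutlin-3a (64.1% to 85.9%) per the authors' deposited tables (adjusted p by DESeq2 0.000856 and 0.000494). The Nutlin-3a log2 fold changes of MGA per the authors' deposited tables were -0.08 in siControl and -0.10 in siRFX7 (adjusted p by DESeq2 0.616 and 0.536).

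MLX had recovered means of 2277 (DMSO) and 2705 (Nutlin-3a) normalized counts under siControl, and 2059 (DMSO) and 2636 (Nutlin-3a) under siRFX7. Nutlin-3a raised MLX 1.19-fold in siControl and 1.28-fold in siRFX7 per the authors' deposited tables (adjusted p by DESeq2 3.13e-05 and 1.14e-09). siRFX7 lowered MLX in DMSO by a log2 fold change of -0.14 per the authors' deposited table (standard error 0.06, adjusted p by DESeq2 0.0366), a call that was lost with equal group totals, with recentring on the median gene and with the t distribution (adjusted p 0.259, 0.131 and 0.121). In Nutlin-3a, siRFX7 was not shown to change MLX, at -0.04 (adjusted p by DESeq2 0.681) per the authors' deposited table. An exon of MLX overlaps one of PSMC3IP on the other strand, and that gene had a log2 fold change of -4.53 with Nutlin-3a in siControl per the authors' deposited table. The part of PSMC3IP reads in the MLX values was not tested.

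MLXIP, the activator that pairs with MLX, had recovered means of 2864 (DMSO) and 3424 (Nutlin-3a) normalized counts under siControl, and 2925 (DMSO) and 3490 (Nutlin-3a) under siRFX7. Nutlin-3a raised MLXIP 1.2-fold in siControl and 1.19-fold in siRFX7 per the authors' deposited tables (adjusted p by DESeq2 2.04e-05 and 2.53e-05). siRFX7 was not shown to change MLXIP, with log2 95% intervals of -0.08 to 0.14 in DMSO and -0.08 to 0.14 in Nutlin-3a from the authors' deposited tables.

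**Figure D3:**
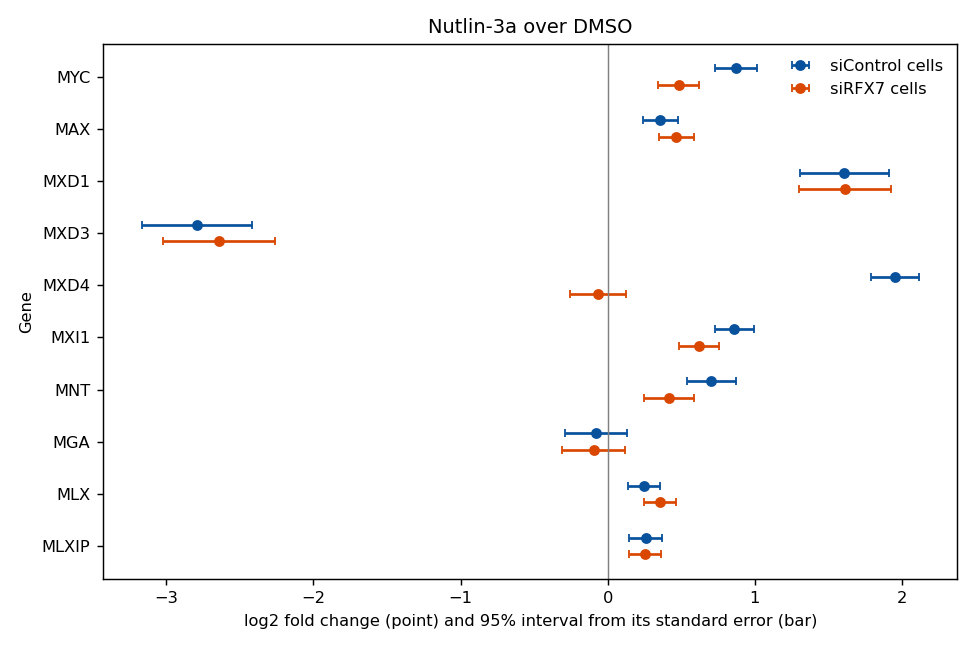
Points give the log2 fold change of Nutlin-3a over DMSO (x axis) for each gene (y axis) in siControl and in siRFX7 cells, with 95% intervals from the authors' standard errors as bars. MXD4 moves from 1.95 in siControl to -0.06 in siRFX7, while MXD1 and MXD3 keep nearly the same values under both siRNAs.

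Counted over the 10 genes, Nutlin-3a raised 8 and lowered 1 in siControl, against 22% and 21.2% of all genes tested per the authors' deposited table. Among the 12463 genes with a mean of at least 100, which all 10 exceed, 33.4% were higher and 32% lower. The 8 genes, and the siControl median given below, include MXD4, whose level in siControl Nutlin-3a entered its choice. In siRFX7 cells 7 rose and 1 fell, against 21.7% and 19.7% of all genes and 34% and 28.7% of those with a mean of at least 100. siRFX7 in DMSO lowered 5 and raised none, against 15.5% and 13.5% of all genes (23.4% and 17.1% at a mean of at least 100). In that DMSO comparison 3 of the 5 lower calls held with equal group totals. Requiring a log2 fold change of at least 0.58 left MXD4 called with siRFX7 in DMSO, MXD4 and MYC in Nutlin-3a, and MXD1, MXD3 and MXI1 for Nutlin-3a in siRFX7, with MXD4, MNT and MYC beside those for Nutlin-3a in siControl. siRFX7 in Nutlin-3a also lowered 5, against 13.6% of all genes and 19.3% at a mean of at least 100, but MXD4 was chosen on that contrast and nothing is read from its count. The response difference was below 0 and called for 2 genes, MXD4 and MYC, and above 0 for none, against 2.92% and 3.28% of all genes (6.2% in either direction) and, for values below 0, 4.69% of those with a mean of at least 100; apart from the chosen MXD4, that is 1 gene. The median log2 fold change of the 10 genes was 0.53 with Nutlin-3a in siControl and -0.23 with siRFX7 in DMSO, where the medians over all genes were 0.02 and 0.00.

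Levels were compared between genes only per kilobase of exon, using the union of annotated exons. On this scale MYC ranked highest of the 10 in each group, from 2139 normalized counts per kb in siRFX7 DMSO to 5305 in siControl Nutlin-3a. MLX came second in each group, at 484 to 635. The lowest were MXD1 in both DMSO groups, at 14.3 and 12.2, and MXD3 in both Nutlin-3a groups, at 14.0 and 13. Under siControl MXD4 ranked 6 with DMSO and 5 with Nutlin-3a, and under siRFX7 it ranked 9 and 8. Errors are not available for these levels, and the transcripts actually used may be shorter than the exon union, so neighbours in the order are not claimed to differ.

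The make-up of the MXD genes (MXD1, MXD3, MXD4 and MXI1 summed per kb) differed between groups. Their sum was 539 (DMSO) and 1042 (Nutlin-3a) normalized counts per kb under siControl, and 424 (DMSO) and 529 (Nutlin-3a) under siRFX7. Under siControl MXD4 made up 18.8% of that sum with DMSO and 37.6% with Nutlin-3a, and under siRFX7 12% and 9.22%. MXI1 was the largest part in each group, from 56.9% in siControl Nutlin-3a to 81.3% in siRFX7 Nutlin-3a. In siControl Nutlin-3a the recovered means were 2731 for MXI1 and 2766 for MXD4, so their order there rests on the exon lengths used. The MXD3 share was 18% with DMSO and 1.35% with Nutlin-3a under siControl, and 19.1% and 2.46% under siRFX7. The ratio of MYC to the MXD sum stayed between 5.04 and 5.64 over the 4 groups, and both MYC and the sum were highest in siControl Nutlin-3a. The ratio of MYC to MXD4 alone ran from 13.5 in siControl Nutlin-3a to 61.2 in siRFX7 Nutlin-3a. These shares are descriptions of group means and were not tested.

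**Figure D4:**
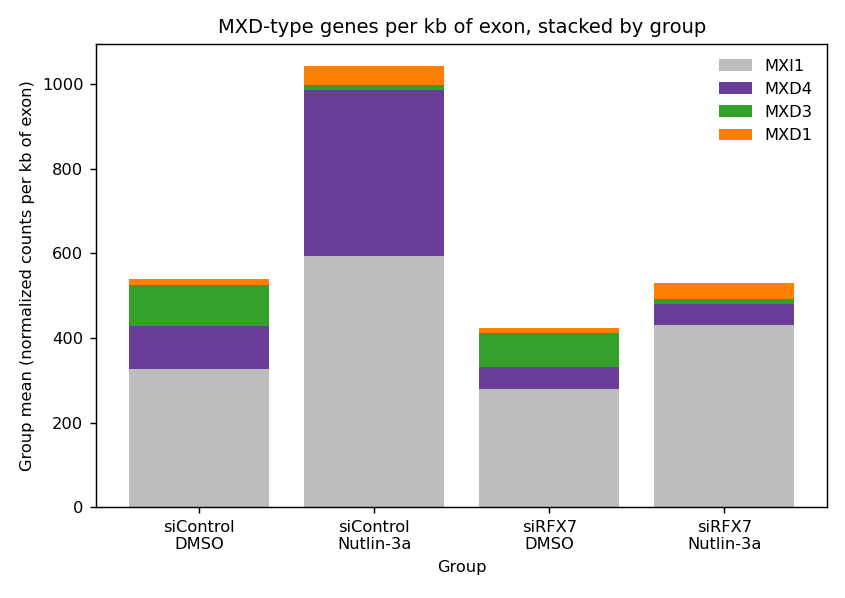
Stacked bars give the recovered group mean per kb of exon (y axis) of MXI1, MXD4, MXD3 and MXD1 in each group (x axis). The MXD4 layer is 37.6% of the bar in siControl Nutlin-3a and 9.22% in siRFX7 Nutlin-3a, and the MXD3 layer is thin in both Nutlin-3a groups.

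Of 3 further genes of the network, MLXIPL (ChREBP, the liver-type relative of MLXIP) and MYCL were listed; MYCN was not analysed here. Recovered means of MLXIPL were 591 (DMSO) and 848 (Nutlin-3a) normalized counts under siControl, and 402 (DMSO) and 574 (Nutlin-3a) under siRFX7. MLXIPL fell with siRFX7 by a log2 fold change of -0.56 in each treatment (standard errors 0.09 and 0.08, adjusted p by DESeq2 2.31e-09 and 1.14e-10) per the authors' deposited tables. It rose with Nutlin-3a by 0.52 in siControl and 0.51 in siRFX7 (adjusted p by DESeq2 7.51e-10 and 1.57e-08) per the authors' deposited tables. MYCL passed no test, with log2 fold changes from -0.22 to -0.11 over the 4 comparisons of the authors' deposited tables.

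Genes that MYC is known to activate were followed as 2 lists. Each gene of these lists, and of those that follow, had a mean of at least 100, so counts are set beside the share called in either direction among the 12463 such genes. Of 21 ribosome biogenesis genes, siRFX7 lowered 3 in DMSO and raised none, and lowered 4 and raised 1 in Nutlin-3a, against 40.5% and 39.1% of such genes called (29% and 28.6% of all genes) per the authors' deposited tables. These counts lie below the background, and the list medians were -0.02 and -0.06. The snoRNP and nucleolar genes NOLC1 at -0.30 (standard error 0.04) and NOP56 at -0.18 fell in DMSO, and FBL, encoding fibrillarin, was lower at -0.49 (standard error 0.13) in Nutlin-3a per the authors' deposited tables. With Nutlin-3a, 10 of the 21 fell and 3 rose in siControl and 9 fell and 4 rose in siRFX7, with medians of -0.20 and -0.02. In either direction together these counts are near the 65.5% and 62.7% called at a mean of at least 100 (43.2% and 41.4% of all genes). By direction, 32% of genes at that mean were lower and 33.4% higher in siControl, and 28.7% and 34% in siRFX7. Lower calls were thus above their share and higher calls below it, a lean that was not tested. MRTO4 at -0.65 and NCL, encoding nucleolin, at -0.47 fell in siControl, whereas RRP12 rose by 0.74 (standard error 0.05), per the authors' deposited table.

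Of 15 MYC-activated metabolic and growth genes, siRFX7 lowered 6 and raised none in DMSO and lowered 6 and raised 3 in Nutlin-3a per the authors' deposited tables, against 40.5% and 39.1% of genes at that mean called, with medians of -0.13 and -0.05. By direction, siRFX7 lowered 23.4% and raised 17.1% of genes at that mean in DMSO, and lowered 19.3% and raised 19.8% in Nutlin-3a. The 6 lower calls lie above their share in each treatment, a lean that was not tested. Higher calls lie below their share in DMSO and near it in Nutlin-3a. SHMT2, a mitochondrial enzyme of serine and glycine metabolism, fell, at -0.78 with DMSO and -0.57 with Nutlin-3a (standard errors 0.05), as log2 fold changes per the authors' deposited tables. The purine synthesis gene IMPDH2 fell, at -0.46 in Nutlin-3a (standard error 0.06, adjusted p by DESeq2 2.23e-14) per the authors' deposited table. SLC1A5, a glutamine transporter, fell with siRFX7 in DMSO at -0.57 and rose with it in Nutlin-3a at 0.35 (standard errors 0.04) per the authors' deposited tables. With Nutlin-3a in siControl, 9 of the 15 fell and 3 rose with a median of -0.31, among them ODC1, the first enzyme of polyamine synthesis, at -0.96 and CDK4 at -0.62 per the authors' deposited table. In siRFX7 cells 7 fell and 2 rose with a median of -0.12, and ODC1 was at -0.93 per the authors' deposited table. The shares called at that mean were 65.5% in siControl and 62.7% in siRFX7. By direction they were 32% lower and 33.4% higher in siControl, and 28.7% lower and 34% higher in siRFX7. Lower calls of the list lie above their share and higher calls below it, which was not tested.

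The 8 genes that MYC represses, several with its partner ZBTB17 (MIZ1), moved in both directions. With siRFX7, 3 rose and 4 fell in each treatment per the authors' deposited tables, with medians of -0.10 and -0.16, against 40.5% and 39.1% of genes with a mean of at least 100 called. CLU at 0.92 and 1.21, NDRG2 at 0.76 and 0.89 and the p53 target CDKN1A at 1.29 and 0.35 rose, while the stress gene NDRG1 fell, at -0.57 and the CDK inhibitor gene CDKN2B at -0.54 in Nutlin-3a (log2 fold changes per the authors' deposited tables). With Nutlin-3a, 4 rose and 3 fell in siControl and 4 rose and 2 fell in siRFX7, against 65.5% and 62.7%. CDKN1A and GADD45A, which rose most, are direct p53 targets. Of 6 targets of MLX and MLXIP, TXNIP and G0S2 were not analysed here. With siRFX7, 2 of the other 4 fell when DMSO was given, while 1 fell and 1 rose under Nutlin-3a, per the authors' deposited tables, too few genes to set against these shares. KLF10, a zinc finger factor, fell with siRFX7 by -0.46 with DMSO and -0.54 with Nutlin-3a, and PFKFB3, a glycolysis regulator, rose with Nutlin-3a by 0.64 in siControl and 0.79 in siRFX7 (standard errors 0.05), per the authors' deposited tables.

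Of 17 SIN3 complex genes, 10 fell and 4 rose in siControl and 9 fell and 4 rose in siRFX7 per the authors' deposited tables, with medians of -0.22 and -0.23. Among genes with a mean of at least 100, 32% were lower and 33.4% higher in siControl, and 28.7% lower and 34% higher in siRFX7. SAP30 at -1.34 (standard error 0.20), RBBP7 at -1.14 and ING2 at -1.01 fell in siControl, and BRMS1L rose by 1.11, as log2 fold changes per the authors' deposited table. siRFX7 lowered 3 and raised 1 of the 17 in DMSO, led by the deacetylase gene HDAC1 at -0.46 (standard error 0.04), and lowered 5 and raised 1 in Nutlin-3a per the authors' deposited tables, against 40.5% and 39.1% of genes at that mean called in either direction. Of 12 genes of the MGA Polycomb complex, Nutlin-3a lowered 8 and raised 1 in siControl and lowered 5 and raised 1 in siRFX7 per the authors' deposited tables, with medians of -0.25 and -0.13. TFDP1 and CBX1 fell, at -0.92 each and TFDP2 rose by 0.88 in siControl. Of these 12 none fell with siRFX7, while 2 rose with DMSO and 4 with Nutlin-3a, with L3MBTL2 at 0.23 and 0.33 per the authors' deposited tables. Taken in either direction together, the siRFX7 counts of both complexes lie below those shares. Split by direction, siRFX7 lowered 19.3% and raised 19.8% of genes at that mean under Nutlin-3a. The 5 lower SIN3 calls and the 4 higher calls of the MGA complex there lie above these, which was not tested. Higher SIN3 calls and lower MGA complex calls lie below them. For DMSO, with 23.4% lower and 17.1% higher, neither complex exceeded its share.

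Among 17 genes for MYC cofactors and MYC protein turnover, 7 fell and 4 rose with Nutlin-3a under each siRNA per the authors' deposited tables, with medians of -0.13 in siControl and 0.01 in siRFX7. These counts are near the 65.5% and 62.7% called among genes with a mean of at least 100. AURKA, a mitotic kinase that stabilises MYC-family proteins, fell most, at -3.06 in siControl and -3.34 in siRFX7 (standard errors 0.08). The ubiquitin ligase genes SKP2 and FBXW7, both linked to MYC protein degradation, went opposite ways, with SKP2 at -1.27 in siControl and -1.22 in siRFX7 and FBXW7 at 0.79 and 1.08, per the authors' deposited tables. FBXW7 was higher with siRFX7 in Nutlin-3a by a log2 fold change of 0.45 (standard error 0.06, adjusted p by DESeq2 7.06e-12) per the authors' deposited table. With siRFX7, 6 fell and 1 rose in DMSO and 4 fell and 1 rose in Nutlin-3a, against 40.5% and 39.1% called at that mean, with the chromatin remodeller gene EP400 at -0.45 in DMSO. By direction, siRFX7 lowered 23.4% and raised 17.1% of such genes in DMSO, and 19.3% and 19.8% in Nutlin-3a. Nutlin-3a lowered 32% and raised 33.4% in siControl, and 28.7% and 34% in siRFX7. In each comparison lower calls of the list lie above their share and higher calls below it, which was not tested. All values of this list are RNA levels, and MYC protein was not measured here.

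**Figure D5:**
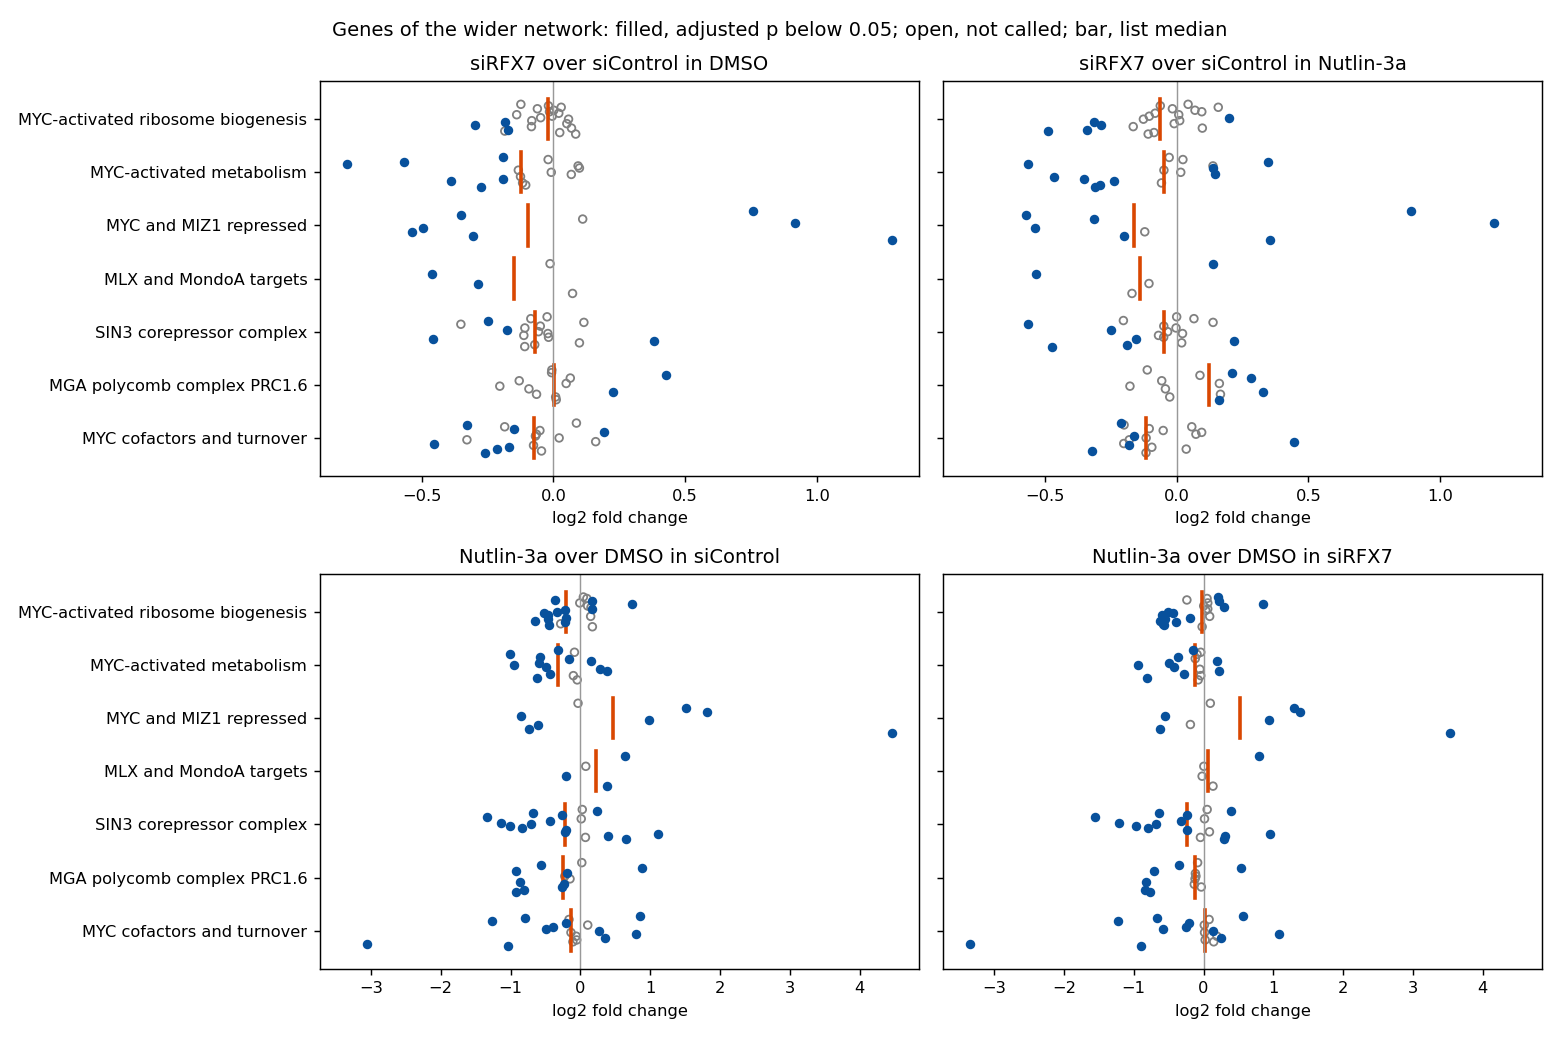
Each point is a gene of 7 lists (y axis) with its log2 fold change (x axis) in the 4 comparisons of the authors' deposited tables, filled where called and open where not, with the list median as an orange bar. The medians of the MYC-activated lists lie between -0.13 and -0.02 with siRFX7 and between -0.31 and -0.02 with Nutlin-3a, and the MYC-repressed genes spread to both sides.

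Likeness to MXD4 was measured as the Euclidean distance over 3 log2 changes, from siControl DMSO to each of the other 3 groups, among 12463 genes. The nearest genes were PNRC1, a nuclear receptor coactivator gene, at a distance of 0.546, the translation inhibitor gene PDCD4 at 0.8, RFX5, a regulator of MHC class II genes, at 0.916, the amino acid transporter gene SLC43A2 at 1.03 and the cyclin G2 gene CCNG2 at 1.09. From siControl DMSO to siControl Nutlin-3a, PNRC1 changed by 1.5 on the log2 scale per the authors' deposited table, against 1.95 for MXD4. The genes nearest to MYC were closer, namely the lipid kinase gene PI4K2A at 0.0892, the ribosomal protein gene RPL13A at 0.114, the myosin gene MYH14 at 0.116, the transcribed pseudogene AC087633.2 at 0.140 and TSPYL1 at 0.156. RPL13A and AC087633.2 have near-identical copies in the genome, so their counts are uncertain. The distance rests on 4 group means and gives no measure of chance.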

How the data were processed

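PolyA RNA of 12 HCT116 libraries in 4 groups was sequenced. Per the submitters' processing notes, which give no roles, the tools named include Trimmomatic 0.39, cutadapt 2.10, SAMtools 1.10, featureCounts 1.6.5 and DESeq2 1.20.0, with build hg38. The aligner, annotation, strand setting and handling of shared reads are not given in the sources used here. The authors deposited 4 DESeq2 result tables. Per the file headers, mean normalized counts are a signal, counts divided by size factors and averaged over libraries. The deposited log2 fold changes and standard errors are on a log2 scale, and the deposited statistic is a score (their ratio). The deposited p-values are those of the authors' Wald test, and the deposited adjusted p-values are these after Benjamini-Hochberg correction.

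Fold changes for the siRNA were taken with siControl as reference, since the 4 tables then closed to within 1.24e-14 (median error 0.374 the other way). Group means were recovered from the overall mean and the fold changes, taking groups as equal in size. Calls used an adjusted p below 0.05. Intervals are 1.96 standard errors wide on each side and cover the authors' model error. The response difference was assessed by a z test (two-sided), adjusted over 23195 genes, which treats standard errors as known. The recovery of group means and the z test were both tried on simulated data. The noise simulated for the z test was drawn with the same standard errors, so it could not test whether they are known. GENCODE 29 (23164 of 23195 IDs matched) gave positions and exon lengths, and RefSeq gave promoters. The genes, lists and tests were chosen with earlier results of these data known. Genes named are the 10, 3 checks, up to 4 called genes of the largest change per list with a mean of at least 100 (counts over the whole list name no others), overlapping genes and the 5 nearest to MXD4 and to MYC. MYCL falls outside this rule and was named after its values were seen, to account for the further network genes. Python 3.11.15, numpy 2.4.6, pandas 2.3.3 and scipy 1.17.1 were used. The depth of single libraries is not known.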

Additional observations from a re-analysis of the deposited data

Results flagged for a closer look

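The difference of the Nutlin-3a log2 fold changes between siRFX7 and siControl cells passed the two-sided z test (adjusted p below 0.05) for the following genes. Of 24 such differences besides MXD4, 15 did not pass with a t distribution of 8 degrees of freedom (adjusted p 0.0800 to 0.289). The 9 that still passed were those of SLC1A5, CDKN1A, MDM2, PNRC1, PDCD4, RFX5, SLC43A2, CCNG2 and TSPYL1, so the others, MYC among them, rest on treating the standard errors as known. PNRC1, PDCD4, RFX5, SLC43A2, CCNG2 and TSPYL1 were picked as neighbours for a pattern that includes the difference, so their passing is no evidence. For MXD4 the difference was -2.01, which chose the gene in part and is not tested. For MYC it was -0.39 (z test adjusted p 0.00388, and 0.16 with the t distribution). Among the other genes of the lists, the markers and the checks, differences below 0 were -0.93 for CDKN1A, -0.69 for MDM2, -0.67 for KRT19, -0.42 for GADD45A, -0.36 for ARID4A, -0.34 for IMPDH2, -0.34 for TFDP2 and -0.30 for ZBTB17. For CDKN1A and MDM2 the DMSO level was itself higher after siRFX7, by log2 fold changes of 1.29 and 0.49. Differences above 0 were 0.91 for SLC1A5, 0.30 for HDAC1, 0.29 for FBXW7, 0.25 for PA2G4, 0.22 for SHMT2 and 0.22 for TFDP1. The genes nearest to MXD4 in pattern had differences of -1.92 for RFX5, -1.71 for PNRC1, -1.26 for PDCD4, -1.05 for CCNG2 and -1.03 for SLC43A2. Those nearest to MYC had -0.61 for TSPYL1, -0.54 for RPL13A, -0.41 for PI4K2A and -0.41 for AC087633.2. The neighbours were chosen for a pattern that includes this difference, so their values are descriptions.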

How the results depend on the processing

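Of 300 recomputed values of the 10 genes (50 values under 6 alternatives), 277 kept their status, called or not called. Another 23 lost their call, and none that was called changed direction. The 277 include values that were not called to begin with, and MXD4 values that entered its choice. Among 2160 values of the other named genes, called or not, 204 lost and 18 gained the call. None of these that was called changed direction. A minimum log2 fold change of 0.58 left 1547 genes called with siRFX7 in DMSO, 1482 in Nutlin-3a, 5198 with Nutlin-3a in siControl, 4830 in siRFX7 and 544 response differences, against 5811, 5554, 10022, 9601 and 1437; of the 10 genes it left 1 called with siRFX7 in DMSO, 2 in Nutlin-3a, 3 with Nutlin-3a in siRFX7 and 1 difference. With a t distribution of 8 degrees of freedom, 3598, 3347 and 274 genes were called in the siRFX7 comparisons in DMSO and Nutlin-3a and in the differences, and 3 and 1 of the 10 genes in siRFX7 in DMSO and in the differences. In both settings the 1 difference left was that of MXD4, which contains the contrast that chose the gene. MXD4 was also 1 of the 2 genes left with siRFX7 in Nutlin-3a, so nothing is read from these counts for MXD4. An adjusted p below 0.01 left 863 differences. Equal group totals left 3 of the 10 genes called with siRFX7 in DMSO, and over all genes turned 2704 higher and 3107 lower calls there into 3391 and 2262, and 760 and 677 differences above and below 0 into 583 and 792. No paired analysis was possible because the tables hold no value per library, and for the same reason no replicate could be left out.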
